A study of Homo sapiens with 6 samples.

Results

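The genes of the human mitochondrial genome were compared between MDA-MB-231 cells with a hairpin RNA against PUS1 and cells with a control hairpin. The members were the 37 rows of the deposited gene table that lie on the chromosome named MT, of 60605 rows in all. They comprised 13 mRNAs, 2 rRNAs and 22 tRNAs. Each gene model had the same start, end and strand as in GENCODE release 29 on GRCh38, and positions below are on the mitochondrial chromosome of that build. MDA-MB-231 is a triple-negative, mesenchymal-like breast cancer cell line. The shControl group and the shPUS1 group held 3 libraries each, all from this line without further treatment. Both hairpins were delivered by lentivirus, and the vector is named, as pLKO.1, for the hairpins against PUS1. The cells were held under puromycin, so that each group was a selected pool. Which hairpin against PUS1 the sequenced cells carried is not given in the sources used here. The labels call the libraries biological replicates without saying whether they came from separate cultures, so p-values measure the spread between these libraries. RNA was selected on oligo(dT) beads, which retain molecules with a poly(A) tail or an internal run of A.

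Mitochondrial DNA is transcribed from both strands into long precursors that cover many genes. Most mRNAs and both rRNAs are flanked by tRNAs, and enzymes that cut at the ends of the tRNAs release the RNAs between them. Most mitochondrial mRNAs then receive a short poly(A) tail, which completes the stop codon where the gene itself ends in T or TA. PUS1 converts uridine to pseudouridine in cytosolic and mitochondrial tRNAs and in some other RNAs, and inherited loss of PUS1 causes a mitochondrial myopathy with lactic acidosis and sideroblastic anaemia. Pseudouridine itself was not measured in these libraries.

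In the 6 mRNAs below, the coding sequence ends before a full stop codon. Their last 30 bases are shown because the tail selected on the beads starts where they end. The capitals mark the bases left after the last full codon, and A bases from the tail complete the TAA. All are on the plus strand and from GENCODE release 29 (GRCh38), at chrM:4233-4262 for MT-ND1, chrM:5482-5511 for MT-ND2, chrM:9961-9990 for MT-CO3, chrM:10375-10404 for MT-ND3, chrM:12108-12137 for MT-ND4 and chrM:15858-15887 for MT-CYB.
MT-ND1: tacaatctccagcattccccctcaaaccTA
MT-ND2: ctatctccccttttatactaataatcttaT
MT-CO3: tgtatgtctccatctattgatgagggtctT
MT-ND3: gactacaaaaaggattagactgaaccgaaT
MT-ND4: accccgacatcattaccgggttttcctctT
MT-CYB: taattgaaaacaaaatactcaaatgggccT

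A further 4 stretches show how tRNAs sit between 3 of the gene pairs whose ratios are described below. The capitals mark the tRNA, and the lower case bases belong to the neighbouring rRNA or mRNA. MT-TQ, which lies between MT-TI and MT-TM on the minus strand, is not marked. They are on the plus strand of GRCh38 at chrM:1572-1700, chrM:4233-4331, chrM:4402-4499 and chrM:9961-10088, in the order given.
MT-RNR1, MT-TV, MT-RNR2: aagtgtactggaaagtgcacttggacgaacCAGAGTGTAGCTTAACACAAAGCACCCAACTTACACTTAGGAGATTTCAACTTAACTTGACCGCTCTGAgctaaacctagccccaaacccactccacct
MT-ND1, MT-TI: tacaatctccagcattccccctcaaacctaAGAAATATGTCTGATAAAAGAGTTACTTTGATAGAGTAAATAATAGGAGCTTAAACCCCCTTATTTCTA
MT-TM, MT-ND2: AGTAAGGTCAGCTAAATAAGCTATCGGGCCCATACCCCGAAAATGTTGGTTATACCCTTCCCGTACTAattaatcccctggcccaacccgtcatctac
MT-CO3, MT-TG, MT-ND3: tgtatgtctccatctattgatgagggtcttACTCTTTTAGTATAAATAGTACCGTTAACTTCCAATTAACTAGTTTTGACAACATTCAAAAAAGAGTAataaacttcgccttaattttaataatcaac

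PUS1 itself served as the check of the labels. Its level in FPKM (counts scaled to the length of the exons and to the library's total) was 2.57, 4.66 and 2.18 in shControl replicates 1, 2 and 3 and 1.13, 0.95 and 0.93 in shPUS1 replicates 1, 2 and 3. The groups did not overlap, and PUS1 fell in shPUS1 by 1.64 on the log2 scale (SE 0.32, adjusted p 0.0462 by edgeR's quasi-likelihood test). Without shControl replicate 2, which held the highest PUS1 level, it fell by 1.20 (adjusted p 0.00311). The call was lost without shControl replicate 1 (adjusted p 0.0905) and without shPUS1 replicate 1, 2 or 3 (0.208, 0.253 and 0.192). Library totals ran from 14241505 to 19625998 counts. The markers of the line stood at their known levels, with VIM at 286 to 498 and CD44 at 74.6 to 99.6 FPKM, ESR1 and PGR at no more than 0.04, CDH1 at no more than 0.18, EPCAM at 2.21 to 3.12 and ERBB2 at 4.93 to 6.91. In limma's estimate of sample quality weights, shControl replicate 2 had a weight of 0.101, against 0.715 to 4.08 in the others. Fold changes are given with and without that library, a choice made with earlier results of these data known.

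Mitochondrial genes held about the same share of all counts in both groups. Together they held 4.93%, 4.78% and 4.93% of the counts in shControl replicates 1, 2 and 3 and 5.09%, 4.31% and 4.68% in shPUS1 replicates 1, 2 and 3. The shControl values lay inside the shPUS1 range, and the means were 4.88% ± 0.0835 and 4.69% ± 0.39 (SD, n = 3 each). In bulk libraries, fewer cells with a transcript and less of the transcript per cell cannot be told apart.

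The shares of the mRNAs and of the rRNAs differed more between control libraries than between the groups. The 13 mRNAs held 3.24%, 4.21% and 3.41% of the counts in the shControl libraries and 3.56%, 3.03% and 3.12% in the shPUS1 libraries. The 2 rRNAs held 1.69%, 0.574% and 1.51% in the shControl libraries and 1.53%, 1.28% and 1.56% in the shPUS1 libraries. In both classes the groups overlapped, and shControl replicate 2 stood at an end of the range, with the highest mRNA share and the lowest rRNA share. Its count of rRNA per count of mRNA was 0.136, while the other 5 libraries had 0.421 to 0.521. With all libraries, the difference of shPUS1 from shControl in percentage points was -0.385 for the mean mRNA share and 0.196 for the mean rRNA share, and no test was run on these sums. Without shControl replicate 2, the control means were 3.33% and 1.60%, against 3.24% and 1.45% in shPUS1, so that the difference in the rRNA share changed sign.

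**Figure D1:**
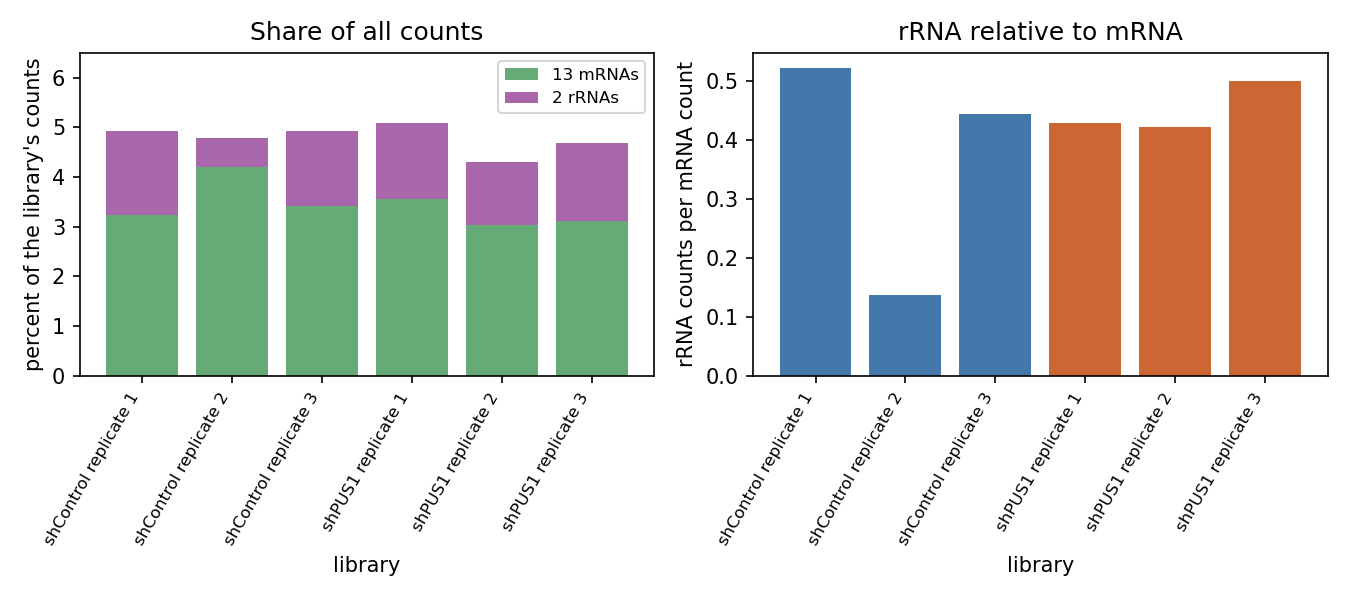
Left, the percent of each library's counts (vertical axis) from the 13 mitochondrial mRNAs and the 2 rRNAs, stacked, in each of the 6 libraries. Right, the count of mitochondrial rRNA per count of mitochondrial mRNA, where shControl replicate 2 stands at 0.136 and the other libraries lie between 0.421 and 0.521.

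The rRNAs form the RNA core of the mitochondrial ribosome. MT-RNR2 (positions 1671 to 3229), the rRNA of the large subunit, had 10018, 3299 and 9192 FPKM in shControl replicates 1, 2 and 3 and 9254, 7718 and 9364 FPKM in shPUS1 replicates 1, 2 and 3. MT-RNR1 (648 to 1601), the rRNA of the small subunit, had 1326, 624 and 839 FPKM in the shControl libraries and 885, 771 and 1037 FPKM in the shPUS1 libraries. For both rRNAs shControl replicate 2 was the lowest library and the other 5 overlapped. Neither of the 2 rRNAs passed the test, against a background of 2.58% of 14748 genes with an adjusted p under 0.05 (1.37% when a log2 fold change of at least 1 in either direction was also asked for). Neither had an unadjusted p under 0.05 in edgeR, against 25.5% of all genes tested. DESeq2 called 0 of the 2, with a background of 13% of the genes it tested. The log2 fold change of shPUS1 over shControl was 0.26 (SE 0.35, 95% interval -0.54 to 1.07, adjusted p 0.658) for MT-RNR2 and -0.02 (SE 0.25, -0.61 to 0.57, adjusted p 0.968) for MT-RNR1. Without shControl replicate 2, the values were -0.09 for MT-RNR2 (adjusted p 0.580) and -0.23 for MT-RNR1 (adjusted p 0.439), and the interval of each then lay within a 2-fold change. With that library included, the interval of MT-RNR2 reached past a 2-fold rise. How much of either rRNA the oligo(dT) beads captured through a tail was not measured, and the longest runs of A within them were 7 and 6 bases for MT-RNR2 and MT-RNR1.

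The mRNAs and rRNAs had some of the highest FPKM in these oligo(dT)-selected libraries. The order below is of captured RNA and need not be the order of levels in the cells. By FPKM, 14 of the top 20 genes in each library were mitochondrial, and 15 in shPUS1 replicate 1. MT-RNR2 ranked 1 in 5 libraries and 8 in shControl replicate 2. MT-CO2 ranked 1 in that library and 2 in the others, and MT-CO1 and MT-ND4 ranked 3 and 4 in each. Taken over all 6 libraries, the order of the mean FPKM was MT-RNR2 (8141), MT-CO2 (7026), MT-CO1 (5207), MT-ND4 (4789), MT-CO3 (3885), MT-ND1 (2545), MT-ND3 (2537), MT-ATP6 (2456), MT-ND2 (1981), MT-ND4L (1883), MT-ATP8 (1346), MT-ND5 (1192), MT-CYB (1065), MT-ND6 (1037) and MT-RNR1 (914). Of the 14 pairs of neighbours in this order, 13 overlapped in range over the libraries, and MT-CO2 over MT-CO1 was the exception. Compared within each library, MT-CO1 also stood above MT-ND4, MT-CO3 above MT-ND1, MT-ATP6 above MT-ND2 and MT-ND4L above MT-ATP8 every time. The remaining steps did not hold in every library. The highest mRNA stood 6.78-fold above the lowest.

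**Figure D2:**
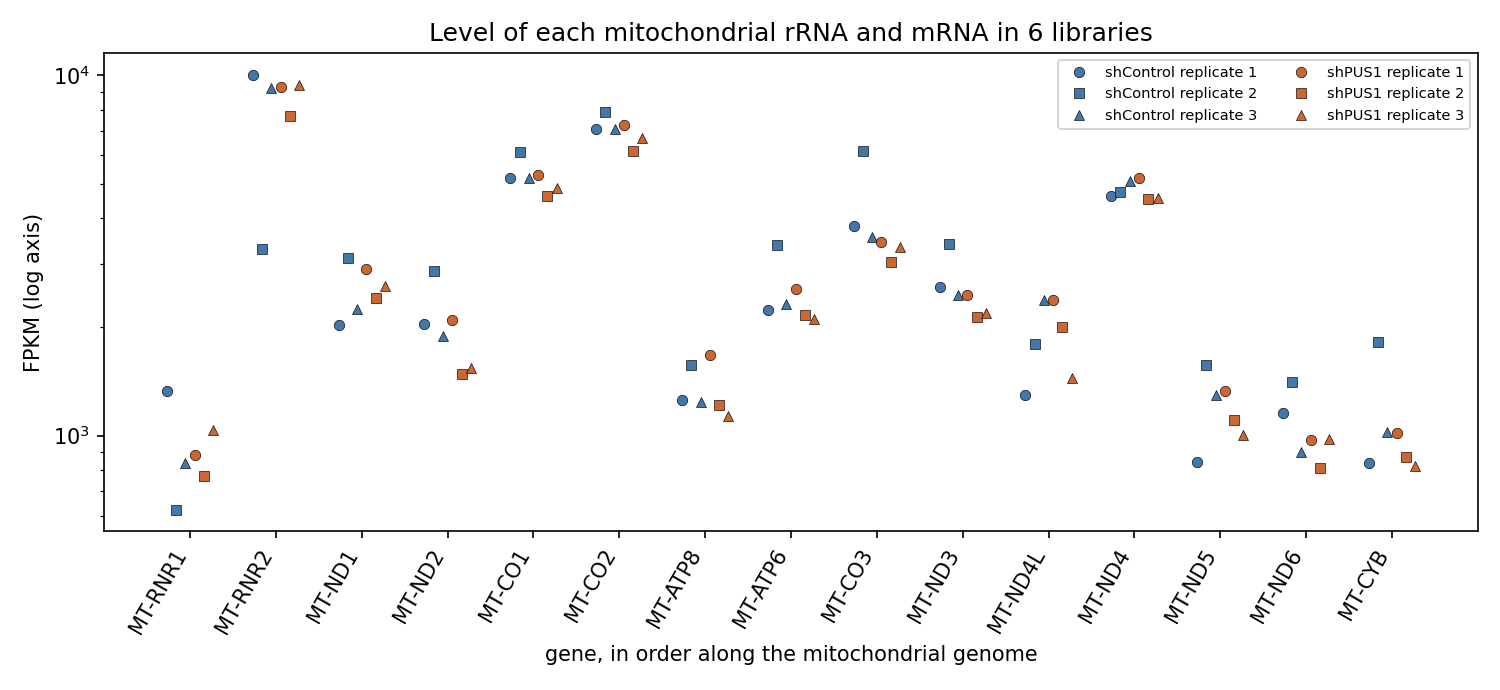
FPKM on a log axis (vertical) of each of the 15 mitochondrial rRNAs and mRNAs with counts, in the order of the genes along the genome (horizontal), with 1 point per library. The square for shControl replicate 2 is the lowest of the 6 points for both rRNAs and the highest for 10 of the 13 mRNAs.

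The spread between the shControl libraries exceeded that between the shPUS1 libraries for most genes. The coefficient of variation of the FPKM ran from 5.03% to 48.8% over the shControl libraries and from 6.64% to 24.4% over the shPUS1 libraries, and it was larger in shControl for 12 of the 15 genes. Relative to the mean of shControl replicates 1 and 3, the FPKM in shControl replicate 2 was 1.95-fold for MT-CYB, 1.67-fold for MT-CO3 and 0.977-fold for MT-ND4. For the rRNAs it was 0.343-fold for MT-RNR2 and 0.576-fold for MT-RNR1.

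None of the 13 mRNAs passed the test in either direction, against the same background of 2.58%. None had an unadjusted p under 0.05 in edgeR, against 25.5% of all genes tested. DESeq2 called 0 of the 13, with a background of 13% of the genes it tested. Of the log2 fold changes, 9 were negative and 4 positive, with a median of -0.14 beside -0.03 over all genes tested, of which 7770 of 14748 were negative. Without shControl replicate 2 the median was -0.00381 beside -0.02 over all genes, and again none of the mRNAs passed, against a background of 18.6%. In that fit 1 of the 13 (7.69%) had an unadjusted p under 0.05, against 34.5% of all genes tested. The 95% interval lay within a 2-fold change for 12 of the 13 mRNAs with all libraries, and for each of the 13 without shControl replicate 2. Over all genes tested it did so for 8929 of 14748 with all libraries and for 10959 of 15130 without that library. Groups did not overlap for 0 of the 13 mRNAs after scaling by TMM, edgeR's trimmed mean of M values, and the background was 36.1%.

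Complex I, the NADH dehydrogenase where electrons enter the respiratory chain, has 7 subunits in this genome. The core subunit MT-ND1 (3307 to 4262) had 2022, 3104 and 2250 FPKM in shControl replicates 1, 2 and 3 and 2891, 2405 and 2596 FPKM in shPUS1 replicates 1, 2 and 3. Its shPUS1 values lay above shControl replicates 1 and 3 and below shControl replicate 2. The log2 fold change was 0.11 (SE 0.19, 95% interval -0.33 to 0.55, adjusted p 0.731), and without shControl replicate 2 it was 0.34 (SE 0.10, 0.11 to 0.58, adjusted p 0.0502). This was the smallest adjusted p of any member under any setting, and it missed the threshold of 0.05.

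MT-ND2 (4470 to 5511), another proton-pumping subunit, had 2036, 2854 and 1884 FPKM in shControl and 2090, 1482 and 1537 FPKM in shPUS1. The shPUS1 replicate 1 value lay among the shControl values and the other shPUS1 libraries lay below them. The log2 fold change was -0.39 (SE 0.22, adjusted p 0.291), and -0.16 when shControl replicate 2 was left out (adjusted p 0.480). MT-ND4 (10760 to 12137) varied little between libraries, at 4623, 4747 and 5091 FPKM in shControl and 5164, 4542 and 4569 FPKM in shPUS1. The groups overlapped, with a log2 fold change of 0.00480 (SE 0.11, 95% interval -0.25 to 0.26, adjusted p 0.983), or 0.0128 when shControl replicate 2 was left out (adjusted p 0.932).

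MT-ND4L (10470 to 10766), a small subunit whose gene shares 7 bases with MT-ND4, varied within both groups. It had 1298, 1789 and 2382 FPKM in shControl and 2382, 2005 and 1440 FPKM in shPUS1, which is nearly the same range, and the log2 fold change was 0.12 (SE 0.25, adjusted p 0.795), and again 0.12 in the fit without shControl replicate 2 (adjusted p 0.771). MT-ND3 (10059 to 10404) had 2577, 3407 and 2459.2 FPKM in shControl and 2459.1, 2132 and 2188 FPKM in shPUS1. The groups stood apart by the difference between the last shControl and the first shPUS1 value, and after TMM scaling they overlapped, with a log2 fold change of -0.30 (SE 0.17, adjusted p 0.295). Leaving out shControl replicate 2 gave -0.11 (adjusted p 0.435).

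MT-ND5 (12337 to 14148), the longest of the 13 genes, had 847, 1569 and 1299 FPKM in shControl and 1325, 1107 and 1005 FPKM in shPUS1. All its shPUS1 values lay inside the shControl range, and the log2 fold change was -0.09 (SE 0.24, adjusted p 0.821). With shControl replicate 2 left out the sign turned, to 0.14 (adjusted p 0.611). MT-ND6 (14149 to 14673) is the only one of the mRNAs encoded on the minus strand and is known for lacking a stable poly(A) tail. It was present at 1152, 1410 and 901 FPKM in shControl and 970, 811 and 976 FPKM in shPUS1. The groups overlapped, with a log2 fold change of -0.31 (SE 0.19, adjusted p 0.338), which was -0.12 in the fit without shControl replicate 2 (adjusted p 0.569). Whether the counts at MT-ND6 came from its own strand could not be read from the table, since the strandedness of the counting is not given in the sources used here.

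MT-CYB (14747 to 15887), the cytochrome b subunit of complex III, had 842, 1817 and 1024 FPKM in shControl and 1014, 871 and 824 FPKM in shPUS1. A single library, shControl replicate 2, stood apart from the rest. The log2 fold change was -0.43 (SE 0.29, 95% interval -1.10 to 0.23, adjusted p 0.370), the widest interval among the mRNAs, and -0.00381 when shControl replicate 2 was left out (adjusted p 0.986).

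Complex IV, cytochrome c oxidase, passes electrons to oxygen, and its 3 largest subunits are encoded here. MT-CO1 (5904 to 7445), which carries the site of oxygen reduction, had 5181, 6099 and 5189 FPKM in shControl and 5286, 4629 and 4856 FPKM in shPUS1. MT-CO2 (7586 to 8269), which receives electrons from cytochrome c, had 7081, 7881 and 7063 FPKM in shControl and 7277, 6153 and 6700 FPKM in shPUS1. For both genes shPUS1 replicate 1 lay among the control libraries and shPUS1 replicates 2 and 3 below them. Their log2 fold changes were -0.14 (SE 0.13, adjusted p 0.528) and -0.11 (SE 0.12, adjusted p 0.604), and without shControl replicate 2 both were -0.03.

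MT-CO3 (9207 to 9990) had 3822, 6143 and 3544 FPKM in shControl and 3446.5, 3026 and 3330.2 FPKM in shPUS1. The shPUS1 libraries lay below the shControl libraries, but they overlapped after TMM scaling. Its log2 fold change of -0.45 (SE 0.23, 95% interval -0.98 to 0.08, adjusted p 0.255) was the lowest among the mRNAs and did not pass the test. Without shControl replicate 2 it was -0.13 (adjusted p 0.347).

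The ATP synthase, complex V, takes its subunits MT-ATP6 and MT-ATP8 from neighbouring genes that overlap by 46 bases and are known to share an mRNA. MT-ATP6 (8527 to 9207), part of the proton channel, had 2231, 3386 and 2313 FPKM in shControl and 2546, 2155 and 2102 FPKM in shPUS1. MT-ATP8 (8366 to 8572), at 207 bases the shortest of the mRNA genes, had 1252, 1570 and 1237 FPKM in shControl and 1671, 1213 and 1132 FPKM in shPUS1. The groups overlapped for both, with log2 fold changes of -0.21 (SE 0.20, adjusted p 0.535) for MT-ATP6 and 0.00370 (SE 0.19, adjusted p 0.993) for MT-ATP8. The values without shControl replicate 2 were 0.0391 for MT-ATP6, so that its sign turned, and 0.15 for MT-ATP8 (adjusted p 0.819 and 0.551).

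**Figure D3:**
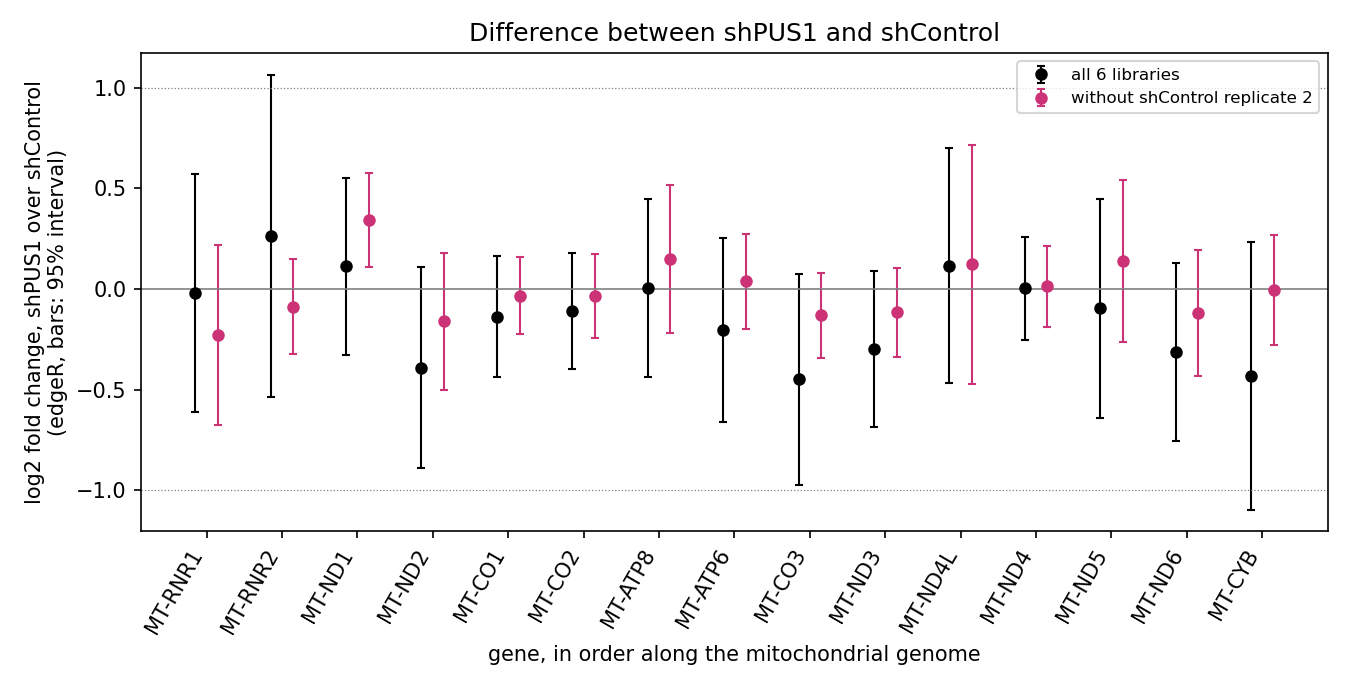
Log2 fold change of shPUS1 over shControl (vertical axis) from edgeR for each mitochondrial rRNA and mRNA in genome order, with all 6 libraries (black) and without shControl replicate 2 (red), and bars for the 95% interval. The dotted lines mark a 2-fold change, and the interval of MT-ND1 without shControl replicate 2, 0.11 to 0.58, is the one that lies apart from 0.

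A ratio within the mitochondrial mRNAs is free of the scaling between libraries. As a percent of the counts of the 13 mRNAs, MT-ND1 had 5.96%, 7.05% and 6.30% in shControl and 7.76%, 7.59% and 7.96% in shPUS1. Its means were 6.44% ± 0.556 and 7.77% ± 0.184 (SD, n = 3 each), and the shPUS1 libraries lay above all the shControl libraries. MT-ND3 had 2.75%, 2.80% and 2.49% in shControl and 2.39%, 2.43% and 2.43% in shPUS1, with means of 2.68% ± 0.165 and 2.42% ± 0.0239, and its shPUS1 libraries lay below the shControl libraries. On the log2 scale the differences were 0.27 for MT-ND1 and -0.15 for MT-ND3.

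These 2 of the 13 mRNAs were the ones whose groups did not overlap, and 28.4% of the tested genes outside the mitochondrial genome did not overlap when divided by the same mRNA total. In a two-sided exact permutation test, both had p 0.1, which is the smallest that 3 against 3 libraries allow. Leaving out a library can only add to this count. It was 7 without shControl replicate 3, where 41.0% of the genes outside did not overlap, and 2 to 4 when any other single library was left out, where 33.0% to 42.7% did not. MT-CO1, the mRNA with the largest share, had 24.7%, 22.3% and 23.5% in shControl and 22.9%, 23.6% and 24.0% in shPUS1, so that the groups overlapped.

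The levels of genes that follow each other along the genome were also set against each other, as FPKM ratios for 14 pairs. The ratio of MT-ND1 to MT-ND2, between which the tRNAs MT-TI, MT-TQ and MT-TM lie, was 0.993, 1.09 and 1.19 in shControl and 1.38, 1.62 and 1.69 in shPUS1. The shPUS1 libraries lay above the shControl libraries, with means of 1.56 ± 0.161 and 1.09 ± 0.10 (SD, n = 3 each), a difference of 0.52 on the log2 scale and an exact permutation p of 0.1, the smallest possible. It was the only 1 of the 14 pairs without overlap, while 33.2% of neighbouring pairs of tested genes outside the mitochondrial genome had none. With 1 library left out, which can only add pairs, 2 to 4 had none, against 37.8% to 49.1% of the pairs outside, and the count was 4 without shControl replicate 3 or without shPUS1 replicate 3. Shares of MT-ND1 and this ratio rest on the same MT-ND1 counts.

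Across MT-TV, the ratio of MT-RNR1 to MT-RNR2 was 0.132, 0.189 and 0.0912 in shControl and 0.0956, 0.0999 and 0.111 in shPUS1, and the shPUS1 values lay inside the shControl range. Across MT-TL1, the ratio of MT-RNR2 to MT-ND1 was 4.95, 1.06 and 4.09 in shControl and 3.20, 3.21 and 3.61 in shPUS1. Its shControl replicate 2 value was the lowest and the shPUS1 libraries lay below the other shControl libraries, so that the groups overlapped with that library and did not without it. Across MT-TG, the ratio of MT-CO3 to MT-ND3 was 1.48, 1.80 and 1.44 in shControl and 1.40, 1.42 and 1.52 in shPUS1, and the groups overlapped. The ratio of MT-CO1 to MT-CO2 was among the steadiest, at 0.732, 0.774 and 0.735 in shControl and 0.726, 0.752 and 0.725 in shPUS1.

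**Figure D4:**
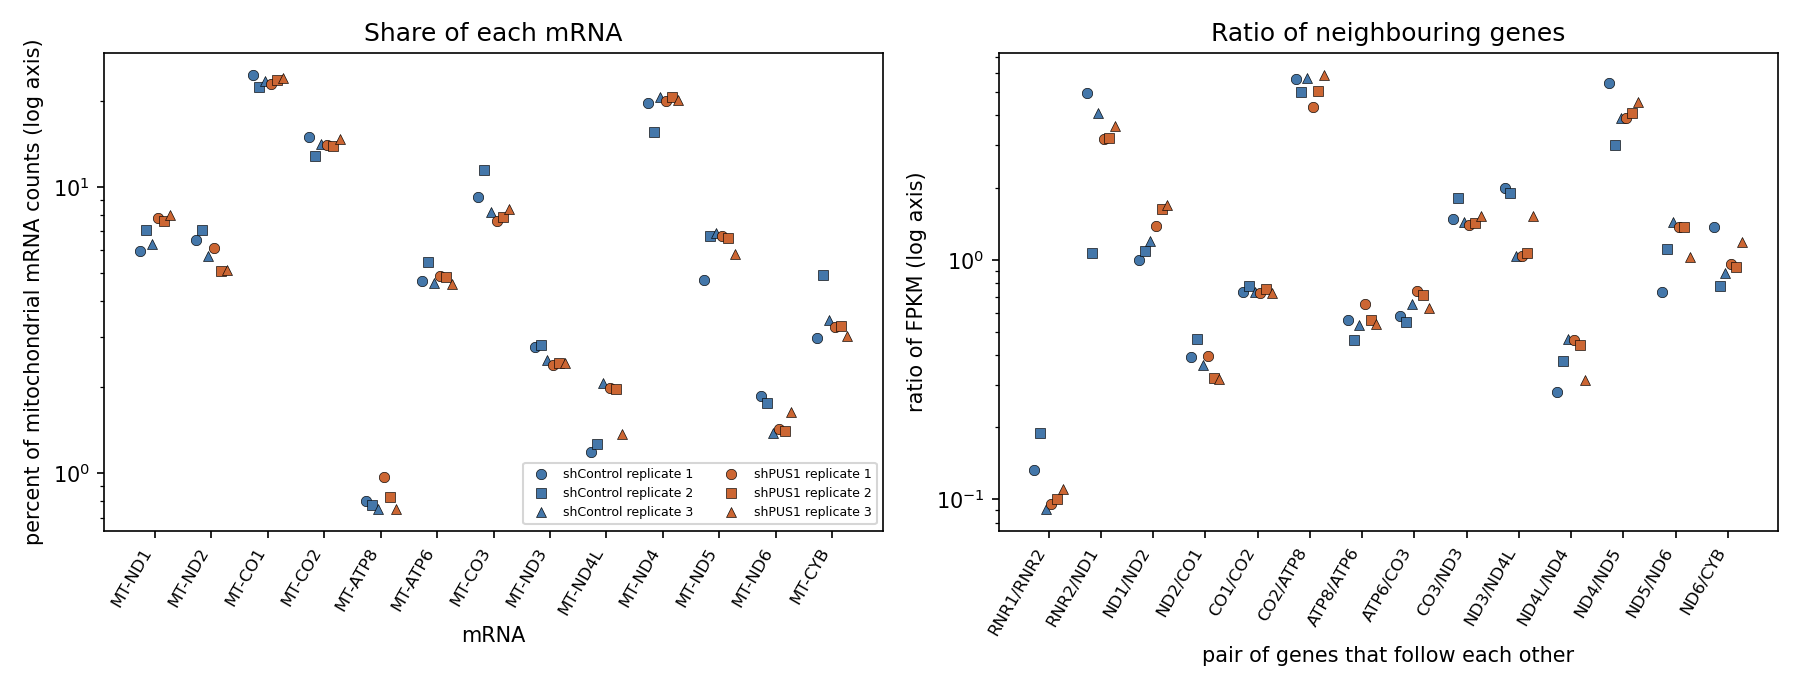
Left, each mRNA's percent of the counts of the 13 mitochondrial mRNAs (log axis) in the 6 libraries, and right, the FPKM ratio of each of the 14 pairs of genes that follow each other (log axis), with 1 point per library. The shPUS1 points of MT-ND1 (7.59% to 7.96%) lie above all shControl points on the left, and those of MT-ND1 over MT-ND2 (1.38 to 1.69) do so on the right.

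The tRNAs, among them substrates of PUS1, could not be compared. All 22 were listed at 0 in every library, and none could enter the test. The mitochondrial tRNA genes are 59 to 75 bases long, 8 of them on the minus strand. Not one of the 3069 genes of at most 100 bases in the table, mitochondrial or nuclear, had a count in any library, and the shortest gene with a count was 101 bases long. The share of genes with any count was 1.29% between 101 and 150 bases, 5.86% between 151 and 200 bases and 79.6% above 2000 bases. The zeros therefore give no information on the level of mitochondrial tRNAs in either group.

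**Figure D5:**
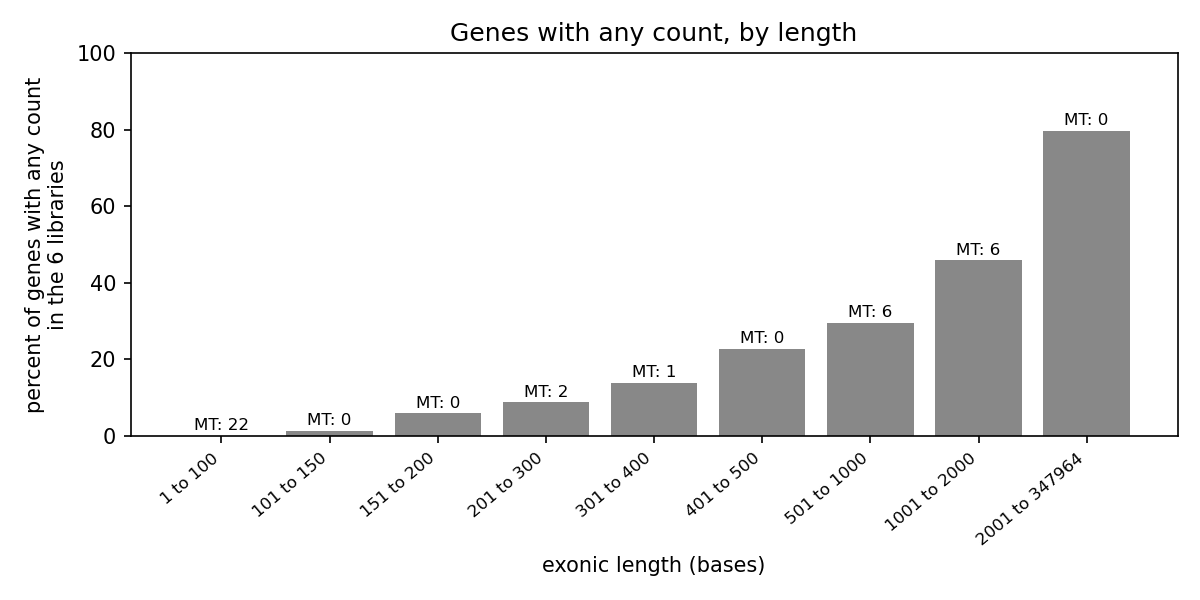
Percent of the genes with any count in the 6 libraries (vertical axis), by exonic length in bases (horizontal axis), with the number of mitochondrial genes in each class written above its bar. The shortest class, 1 to 100 bases, holds the 22 mitochondrial tRNAs and has no gene with a count among its 3069.

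Copies of mitochondrial genes in the nuclear genome can share reads with the members. Of 415 such genes in the table, 37 had a count, and together they held 0.0341% to 0.0676% of a library's counts, which was lowest in shControl replicate 1 and highest in shControl replicate 2. MTATP6P1 (chromosome 1, 633696 to 634376) held 48.4% of these counts, with 3162, 6632 and 3103 counts in shControl and 4149, 3670 and 4297 counts in shPUS1. MTCO1P12 (chromosome 1, 631074 to 632616) held 37.9%, with 1267, 4575 and 2884 counts in shControl and 3977, 3149 and 3728 counts in shPUS1. Both had their highest count in shControl replicate 2, and neither passed the test (log2 fold changes -0.16 and 0.24, adjusted p 0.666 and 0.684). Without that library, the log2 fold changes were 0.12 for MTATP6P1, with its sign turned, and 0.55 for MTCO1P12 (adjusted p 0.487 and 0.233).

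By sequence, 27.9% of the 100-base stretches of MT-CO1 were found in the transcripts of other genes, chiefly MTCO1P12. The figure was 26.1% for MT-ND2 (MTND2P28), 11.9% for MT-ATP6 (MTATP6P1) and 11.0% for MT-ND1 (MTND1P23). It was 4.38% for MT-CO3, 2.39% for MT-CO2 and 0% for the rest of the mRNAs and for the rRNAs. Adding the counts of the copy to those of the member changed the log2 difference in CPM little. It went from -0.200 to -0.192 for MT-ATP6, from -0.155 to -0.146 for MT-CO1 and from -0.400 to -0.397 for MT-ND2. MT-ND2 was checked in this way after its values had been seen. No such sum was computed for MT-ND1 and MTND1P23.

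Nuclear genes that maintain mitochondrial DNA or make, cut, modify and degrade mitochondrial RNA were compared as a list of 39, all of which were tested. None of the 39 passed the test, against the background of 2.58%, and 6 (15.4%) had an unadjusted p under 0.05, against 25.5% of all genes tested. DESeq2 called 1 of them, TOP1MT. Of the log2 fold changes, 32 were negative and 7 positive, with a median of -0.25, beside -0.03 over all genes. Over all genes tested, 7770 of 14748 were negative. Without shControl replicate 2, 25 of the 39 were negative, the median was -0.16, and 1 gene passed, against a background of 18.6%. Over all genes tested without that library, 7890 of 15130 were negative, with a median of -0.02. By role, the medians were -0.25 for 5 transcription genes, -0.20 for 6 genes of DNA maintenance, -0.35 for 4 genes of tRNA end processing, -0.27 for 9 of polyadenylation and stability, -0.13 for 4 of degradation and -0.19 for 11 of rRNA modification. These medians were, in the same order and without shControl replicate 2, -0.0771, -0.11, -0.17, -0.18, 0.0179 and -0.23, so that the sign for degradation turned.

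TOP1MT, the mitochondrial topoisomerase, was the gene that passed without shControl replicate 2. It had 5.08, 4.78 and 4.93 FPKM in shControl and 3.06, 3.71 and 3.52 FPKM in shPUS1. The groups did not overlap in FPKM. The share over all genes tested was taken after TMM scaling, a different measure, and 36.1% of them had no overlap there. The log2 fold change of TOP1MT was -0.50 (SE 0.14, adjusted p 0.0816), or -0.51 with shControl replicate 2 left out (adjusted p 0.0181). POLRMT, the mitochondrial RNA polymerase, had 9.60, 7.80 and 10.1 FPKM in shControl and 9.91, 10.4 and 9.38 FPKM in shPUS1, with a log2 fold change of 0.14 (adjusted p 0.526), or 0.0504 with shControl replicate 2 left out (adjusted p 0.740).

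TFAM, which packs mitochondrial DNA and starts its transcription, had 20.7, 30.6 and 19.5 FPKM in shControl and 20.1, 20.4 and 18.4 FPKM in shPUS1 (log2 fold change -0.25, adjusted p 0.446). LRPPRC, which stabilizes mitochondrial mRNAs, had 7.73, 10.4 and 7.27 FPKM in shControl and 7.15, 7.75 and 7.80 FPKM in shPUS1 (-0.15, adjusted p 0.611). MTPAP, the mitochondrial poly(A) polymerase, had 3.92, 4.70 and 3.54 FPKM in shControl and 3.62, 3.19 and 3.29 FPKM in shPUS1 (-0.25, adjusted p 0.364). In these 3 genes shControl replicate 2 was the highest library, while POLRMT had its lowest level there. How many of all genes were highest in that library was not counted. Without shControl replicate 2, the log2 fold changes were 0.00615 for TFAM, 0.0533 for LRPPRC and -0.11 for MTPAP (adjusted p 0.972, 0.713 and 0.522).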

How the data were processed

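Poly(A)-selected RNA of 3 shControl and 3 shPUS1 libraries was sequenced. The authors deposited 2 kinds of value, unnormalized estimated counts and the FPKM that follow from them, the listed exonic length and the library total. Of the counts above 0, 29.8% to 31.8% were not whole numbers, but all 90 values of the mitochondrial mRNAs and rRNAs were. The submitters' processing notes name HISAT2 and HTSeq 0.6.1. The genome build, annotation release, strandedness and treatment of reads with several places are not given in the sources used here. No per-sample column was left out.

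Counts were rounded, filtered with filterByExpr (14748 genes left), scaled by TMM and tested over all genes by edgeR 4.0.16 (R 4.3.3) with its quasi-likelihood F test (prior count 0.125, Benjamini-Hochberg adjustment, threshold 0.05). The study's methods use DESeq2 and it served as an alternative (1.42.0), as did limma 3.58.1 with pseudocounts of 1 and 0.1 on FPKM. Other steps used Python 3.11.15, numpy 2.4.6, pandas 2.3.3, scipy 1.17.1 and matplotlib 3.10.9. The test was checked on simulated counts with 200 genes changed by 1.5 or by 3 on the log2 scale. It recovered all 200 in both cases, with 10 and 7 false calls. The members' log2 fold changes, -0.45 to 0.26 with all libraries, were smaller, so the check does not cover changes of their size. The changed genes were also drawn from those above the median level, with a spread set by a trend over all genes and no outlying library. Full recovery is therefore not shown for libraries such as these. Library totals were 14241505 to 19625998 counts, and the members with counts had 3647 to 263062 each.

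The members, gene lists, tests and alternatives were chosen with earlier results of these data known, and the ratios of neighbouring genes and the sums with nuclear copies were computed after values had been seen. The text names all mitochondrial mRNAs and rRNAs, PUS1, genes of the list of 39 past the test (up to 6), POLRMT, TFAM, LRPPRC and MTPAP, and the 2 nuclear copies with most counts. MTND2P28, MTND1P23 and TOP1MT were named outside this rule. Equal replicate numbers were not taken as pairs: deviations from the group means correlated at -0.05, -0.03 and -0.19 between same-numbered libraries.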

Additional observations from a re-analysis of the deposited data

How the results depend on the processing

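Over 225 combinations of a mitochondrial mRNA or rRNA with an alternative setting, none passed the test, 196 kept the direction of the value reported and 29 did not. The reversed log2 fold changes follow, and the cause was not tested. MT-RNR1 was 0.0347 with a replicate block and, by limma on FPKM, 0.01005 with a pseudocount of 1 and 0.0101 with 0.1. MT-ATP8 was -0.0155 with library totals in place of TMM, -0.00276 with library sizes from the genes outside the mitochondrial genome, -0.00547 with a replicate block and -0.0278 by limma on FPKM with either pseudocount. MT-ND4 was -0.0187 with library totals, -0.00168 with those library sizes and -0.01999 by limma on FPKM with either pseudocount. By voom with sample weights, MT-RNR2 was -0.0122, MT-ATP6 0.0688, MT-ND5 0.28 and MT-CYB 0.0405. Leaving out each library in turn gave -0.23 to 0.32 for MT-RNR1, -0.0881 to 0.53 for MT-RNR2, -0.0197 to 0.34 for MT-ND1, -0.20 to 0.15 for MT-ATP8, -0.33 to 0.0391 for MT-ATP6, -0.0839 to 0.32 for MT-ND4L, -0.0674 to 0.0433 for MT-ND4, -0.32 to 0.14 for MT-ND5, -0.39 to 0.00615 for TFAM and -0.27 to 0.0533 for LRPPRC. PUS1 kept its direction throughout but lost the call with a replicate block (-1.55, adjusted p 0.0969) and by limma on FPKM (-1.001 with a pseudocount of 1 and -1.48 with 0.1), and ran from -1.86 to -1.20 with a library left out. Of the list of 39, 1 gene passed by DESeq2 and 1 by voom, and 0 to 1 with a library left out. Mitochondrial mRNAs without overlap in their share ran from 2 to 7 with a library left out, which can only raise the count, and 33.0% to 42.7% of the genes outside then had none.

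Over all genes, 380 passed the test, 1730 by DESeq2, 3090 by voom, 1284 without the filter on low counts, 18 with a replicate block, 250 by limma on FPKM with a pseudocount of 0.1, and 0 to 2813 with a library left out (2813 without shControl replicate 2, 0 without shPUS1 replicate 3). The count of mitochondrial genes was 0 in each. Same-numbered libraries did not deviate together, no pairing was assumed, and the block changed no call of a mitochondrial gene. Limits are the 3 libraries per group, the absence of counts for short genes, the unmeasured capture of RNAs with short tails and the unknown treatment of reads shared with nuclear copies.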
